A study of Mus musculus with 8 samples.

Results

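Fos, Fosl1, Jun, Junb and Egr1 are immediate early genes, and the H3K27ac peaks around them were described in 266-6 cells, a mouse pancreatic acinar line, with and without EGF and with and without siRNA against Arid1a. Members were all peaks of the 8 deposited lists that overlapped 1 of 5 windows of build mm9, each named after its gene: Fos at chr12:86765000-86865000, Fosl1 at chr19:5420000-5480000, Jun at chr4:94620000-94820000, Junb at chr8:87475000-87530000 and Egr1 at chr18:34970000-35070000. Merging peaks that shared at least 1 bp across the lists gave 25 member regions of 33920 in all: 3 in the Fos window, 5 in the Fosl1 window, 8 in the Jun window, 4 in the Junb window and 5 in the Egr1 window. The windows are given by position.

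Acetylation of lysine 27 of histone H3 (H3K27ac) marks active promoters and enhancers. Each of the 4 groups had 2 libraries: Arid1a siRNA with EGF (called knockdown with EGF), non-targeting siRNA with EGF (EGF), Arid1a siRNA with vehicle (knockdown), and non-targeting siRNA with vehicle (control). All cells were transfected with siRNA at 25 nM for 48 h, kept overnight without serum, and then given EGF at 40 ng/ml or the vehicle, 0.1% BSA, for 8 h. ARID1A is the DNA-binding part of the SWI/SNF chromatin remodelling complex. Its level was not analysed here, and whether the siRNAs match the mouse gene is not stated, so knockdown and intact are names for the treatment. The labels do not tie the 2 libraries of a group to separate cultures, and a p-value here may measure technical spread only.

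Immediate early genes are transcribed within minutes of a growth factor signal without new protein synthesis, and their transcripts are short-lived. EGF reaches them through its receptor and the ERK kinases, which act on factors bound at their promoters. FOS and FOSL1 pair with JUN or JUNB through leucine zippers to form AP-1, which binds the letters TGACTCA, whereas EGR1 is a zinc finger factor of GC-rich promoters. An EGF treatment of 8 h is late on the time scale of this first response.

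The promoters of Fos, Jun and Junb are shown because these 3 genes give the windows their names and differ in the control elements next to their start sites. The 150 bases before each start site come from RefSeq on build GRCm38.p6, written 5′ to 3′ on the gene's strand with motif matches in capitals, and they are not placed on the mm9 coordinates used for the peaks. Fos lies at chr12:85473740-85473889 on the plus strand, Jun at chr4:95052223-95052372 on the minus strand and Junb at chr8:84978749-84978898 on the minus strand.
Fos: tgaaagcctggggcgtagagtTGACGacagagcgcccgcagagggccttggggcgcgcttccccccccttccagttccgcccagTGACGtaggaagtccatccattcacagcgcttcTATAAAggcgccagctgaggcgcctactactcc
Jun: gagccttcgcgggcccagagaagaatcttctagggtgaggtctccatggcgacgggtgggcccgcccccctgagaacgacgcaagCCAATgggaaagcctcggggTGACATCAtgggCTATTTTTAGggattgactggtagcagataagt
Junb: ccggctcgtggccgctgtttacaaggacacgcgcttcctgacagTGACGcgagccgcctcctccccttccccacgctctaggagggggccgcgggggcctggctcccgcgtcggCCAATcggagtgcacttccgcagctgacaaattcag

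Positions are counted from -1 at the base before the start site, and both strands were searched. The Fos promoter held TGACG, the core of a cyclic AMP response element, at -129 to -125 and at -66 to -62, and a TATAAA box at -33 to -28. In the Jun promoter lay TGACATCA, a variant of the AP-1 site, at -45 to -38, a CCAAT box at -65 to -61 and a MEF2 site at -33 to -24. The Junb promoter had TGACG at -106 to -102 and CCAAT at -36 to -32. Among 32851 mouse promoters of the same length, 13.3% held TGACG, 7.57% TATAAA, 2.32% TGACATCA, 24.5% CCAAT and 0.332% the MEF2 site, and the 3 sequences held no TGACTCA (2.84% of all promoters), no TGACGTCA (1.36%, which contains TGACG) and no CArG box, the serum response element's core (0.916%). Bases further from the start sites were not searched, so a motif missing here may lie outside the printed stretch. Fosl1 and Egr1 are named only.

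The lists held 22030 to 28281 peaks covering 33.9 to 48.7 Mb, with 22030 and 23256 peaks in the libraries of knockdown with EGF, 22361 and 23080 in the EGF libraries, 26844 and 27558 in the knockdown libraries and 22167 and 28281 in the control libraries. Control 1 stood apart from control 2, with 34.3 Mb covered against 47.2 Mb, a length close to that of the EGF libraries. Read depth is unknown, so no counting interval is given, and list length and peak width may move with it; its part in the results was not tested. These totals stand beside every comparison of covered length: the median log2 difference over all tested regions was -0.25 for EGF averaged over both siRNA states, and control 1 aside the lists with EGF covered less than those without. Since no mm9 annotation was used here, a region belongs to a window and not to a gene, and acinar markers were not analysed here. In GRCm38.p6 gene order Fos has Tmed10 and Jdp2 as its nearest neighbours, Fosl1 has AI837181 and Ccdc85b, Jun has Mysm1 and Fggy, Junb has Prdx2 and Hook2, and Egr1 has Reep2 and Etf1, and peaks of such neighbours may lie in the windows.

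H3K27ac peaks were present in all 5 windows in every library. The member peaks numbered 20 and 20 in the libraries of knockdown with EGF, 23 and 20 with EGF, 23 and 21 with knockdown, and 20 and 24 in controls. A peak in all 8 libraries was found in 15 of the 25 member regions (60%), against 16607 of all 33920 regions (49.0%). Each window had 1 lead region, the one with the longest covered length averaged over the 8 libraries, where covered length is the number of bp that a library's peaks span within a region. The lead regions were chr12:86812678-86815370 (Fos), chr19:5423894-5426206 (Fosl1), chr4:94716518-94721299 (Jun), chr8:87498744-87506970 (Junb) and chr18:35018677-35023338 (Egr1), and a peak lay in each of them in all 8 libraries. They were wide: the mean covered length of the Fos lead exceeded that of 81.8% of all tested regions, the Fosl1 lead 77.5%, the Jun lead 96.4%, the Junb lead 98.9% and the Egr1 lead 94.9%. Around the leads, 3 regions of the Jun window had a peak in 1 library only, 749 bp and 373 bp in control 2 and 204 bp in EGF 1. The other 22 members had a peak in at least 2 libraries and were tested, with a median covered length of 1244 bp against 1005 bp over all 28146 tested regions.

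**Figure D1:**
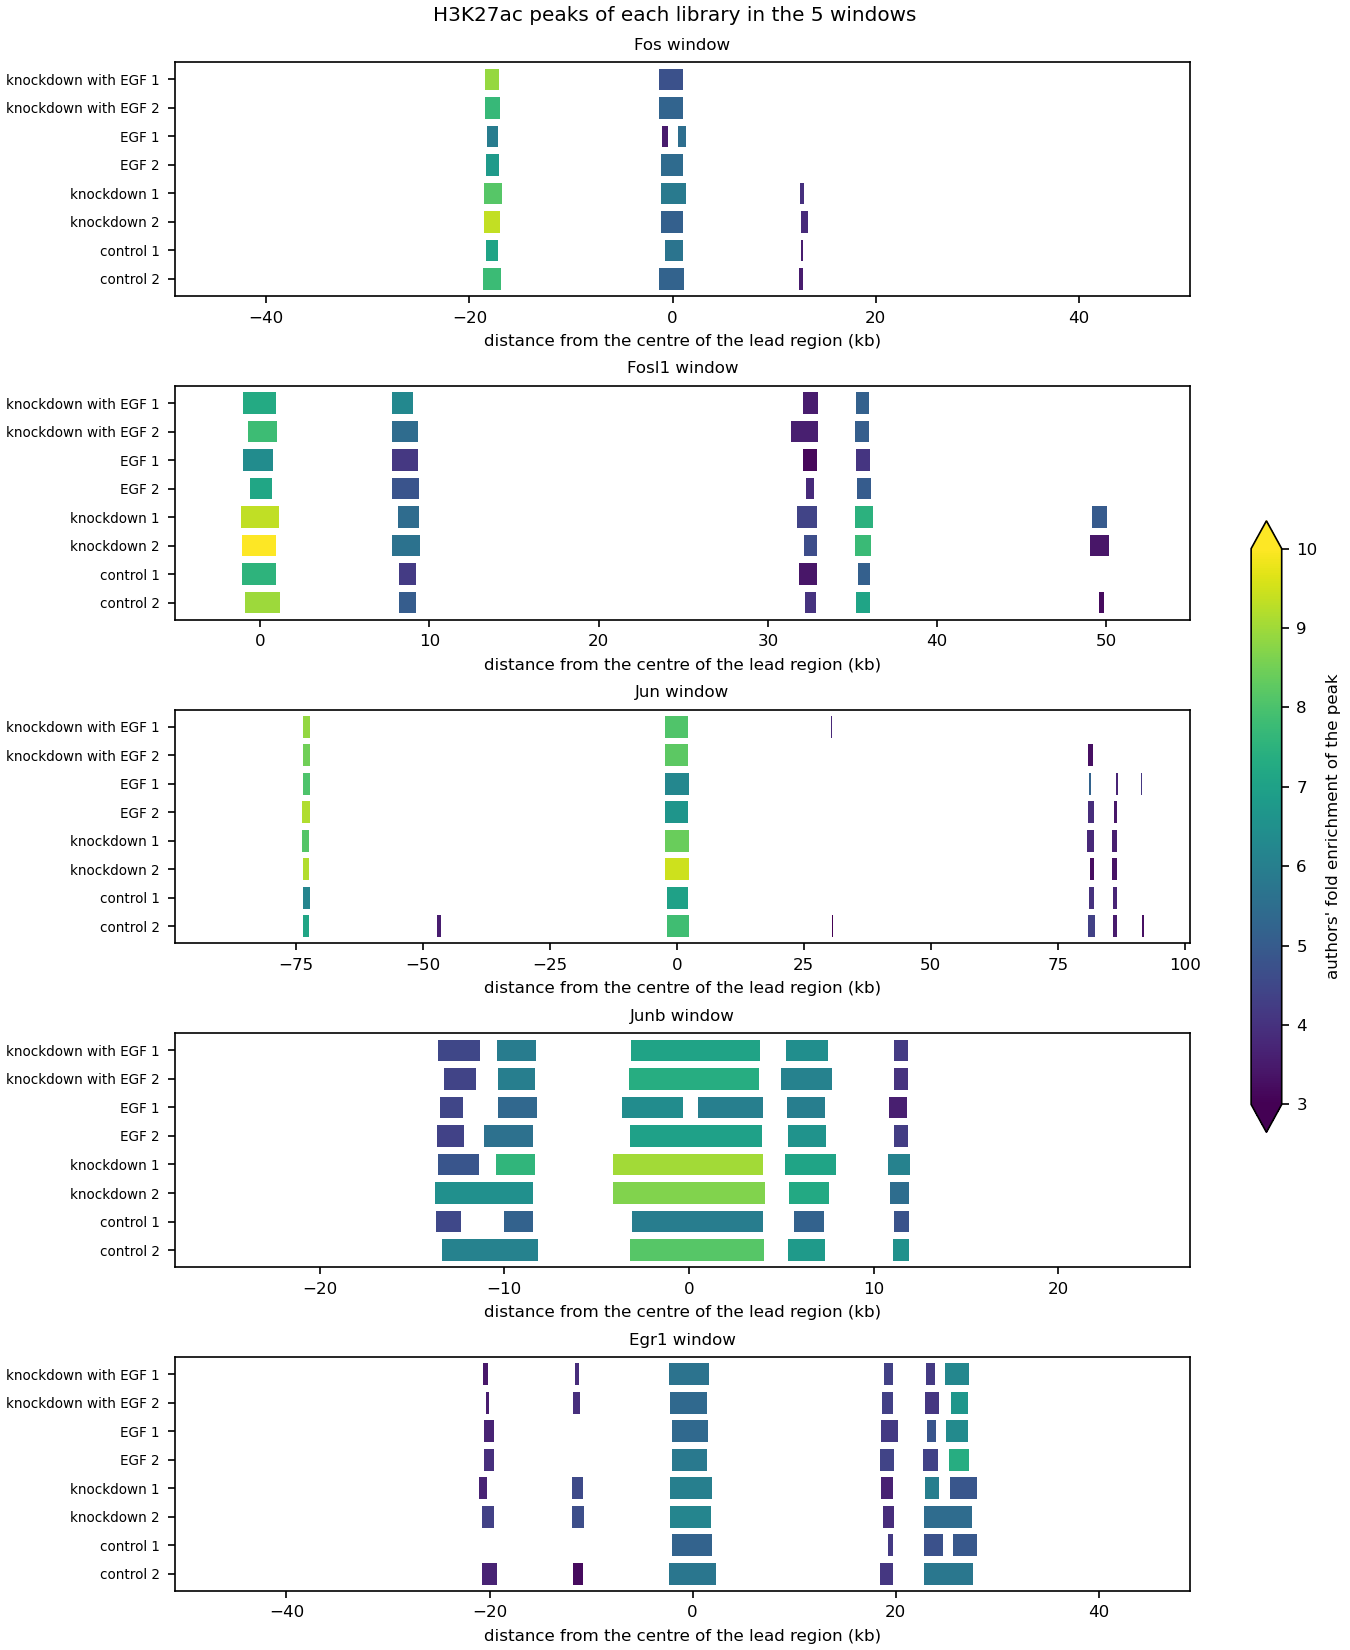
Peaks of each library (rows) by distance in kb from the centre of the window's lead region, coloured by the authors' fold enrichment, with knockdown with EGF at the top and control at the bottom. The lead at 0 has a peak in all 8 libraries in each window, and the region furthest right in the Fos and Fosl1 windows has peaks in vehicle libraries and none in the 4 EGF libraries.

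The first question the design poses is what 8 h of EGF did to H3K27ac at these loci. No member region was called higher with EGF, and the 5 lead regions kept their peaks with covered lengths whose differences did not pass the test. In intact cells alone, the Egr1 region chr18:34999938-35001743 was called higher with lists of equal length, and both it and chr18:35039432-35041260 were called higher without control 2. A flanking region in each of the Fos, Fosl1, Jun and Egr1 windows was called for a shorter covered length with EGF. The Junb window had no such region. Averaged over both siRNA states, 0 of 22 tested members were called higher and 4 lower (18.2%), where 1.79% of all tested regions were called higher and 11.2% lower (limma on log2 of covered bp + 200, Benjamini-Hochberg adjusted p under 0.05 over 28146 regions). Of these 4, the Fos and Fosl1 flanking regions entered the test only through vehicle libraries and so had to differ, which is why the count is a description. The median log2 difference of members was -0.14, against -0.25 for all tested regions.

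The Fos lead covered 2336 and 2377 bp in knockdown with EGF, 1457 and 2142 bp with EGF, 2445 and 2242 bp with knockdown, and 1741 and 2377 bp in controls. EGF 1 was the lowest, and it was the only library in which the lead was split into 2 peaks; the 4 groups' neighbours in order of mean all overlapped. Over both states it covered 2078 ± 426 bp with EGF and 2201 ± 318 bp without (SD, n = 4 each), a log2 difference of -0.087 ± 0.14 (SE; limma adjusted p = 0.701) that turned to 0.015 without control 2 and to 0.037 without EGF 1. In the Fosl1 lead, 1937 and 1742 bp were covered in knockdown with EGF, 1818 and 1347 bp with EGF, 2299 and 2018 bp with knockdown and 2022 and 2028 bp in controls. All 4 EGF libraries lay below all 4 vehicle libraries, but the log2 difference of -0.27 ± 0.11 did not pass after adjustment (limma adjusted p = 0.137).

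Of the Jun family, JUN is the strongest transactivating partner in AP-1, and JUNB a weaker one that can oppose it. The Jun lead covered 4573 and 4562 bp in knockdown with EGF, 4644 and 4521 bp with EGF, 4734 and 4734 bp with knockdown and 4210 and 4420 bp in controls. EGF and vehicle libraries overlapped: EGF libraries averaged 4575 ± 51.2 bp and vehicle libraries 4524.5 ± 257 bp (SD, n = 4 each), a log2 difference of 0.017 ± 0.044 (limma adjusted p = 0.817). Direction differed between states, since both EGF libraries lay above both controls while both libraries of knockdown with EGF lay below both knockdown libraries, but the interaction was not past the threshold (log2 -0.13 ± 0.088, limma adjusted p = 0.778). The Junb lead, the widest of the 5, covered 7000 and 7040 bp in knockdown with EGF, 6794 and 7118 bp with EGF, 8136 and 8227 bp with knockdown and 7131 and 7225 bp in controls. Here the knockdown libraries stood above the other 6, and all EGF libraries lay below all vehicle libraries by a log2 difference of -0.13 ± 0.046 that did not pass (limma adjusted p = 0.107). As in the Fos window, only EGF 1 had this lead split into 2 peaks.

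EGR1 activates and represses target genes after growth factor signals and induces its own inhibitors, the NAB proteins. The lead of its window covered 3958 and 3614 bp in knockdown with EGF, 3575 and 3455 bp with EGF, 4079 and 4000 bp with knockdown and 3959 and 4662 bp in controls. The EGF libraries reached 3958 bp at most, 1 bp under the lowest vehicle library, and the log2 difference of -0.18 ± 0.068 was not past the threshold (limma adjusted p = 0.121). Without control 1 it was -0.24 and passed (limma adjusted p = 0.0395). Quantile normalization, which gives all libraries the same distribution of covered lengths, turned the differences of 3 leads positive, to 0.11 for Fos, 0.070 for Junb and 0.024 for Egr1, none of which passed (limma adjusted p = 0.551, 0.486 and 0.835). Over the 5 leads the lowest group mean was that of EGF in the Fos, Fosl1, Junb and Egr1 windows and that of control in the Jun window. The highest was that of knockdown in the Fosl1, Jun and Junb windows, of knockdown with EGF in the Fos window and of control in the Egr1 window.

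The group means of the leads show which steps exceeded the spread of libraries. For Fosl1 they were 1839.5 ± 138 bp in knockdown with EGF, 1582.5 ± 333 bp with EGF, 2158.5 ± 199 bp with knockdown and 2025 ± 4.24 bp in controls (SD, n = 2 each), and only the step between controls and knockdown with EGF was free of overlap. For Jun they were 4567.5 ± 7.78 bp, 4582.5 ± 87.0 bp, 4734 ± 0 bp and 4315 ± 148 bp in the same groups, with knockdown above and control below 2 groups that overlapped each other. The Junb means were 7020.0 ± 28.3 bp in knockdown with EGF, 6956 ± 229 bp with EGF, 8181.5 ± 64.3 bp with knockdown and 7178 ± 66.5 bp in controls, and only the EGF group and knockdown with EGF overlapped. At Egr1 the means were 3786 ± 243 bp in knockdown with EGF, 3515 ± 84.9 bp with EGF, 4039.5 ± 55.9 bp with knockdown and 4310.5 ± 497 bp in controls, and the knockdown and control libraries were the neighbours that overlapped.

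**Figure D2:**
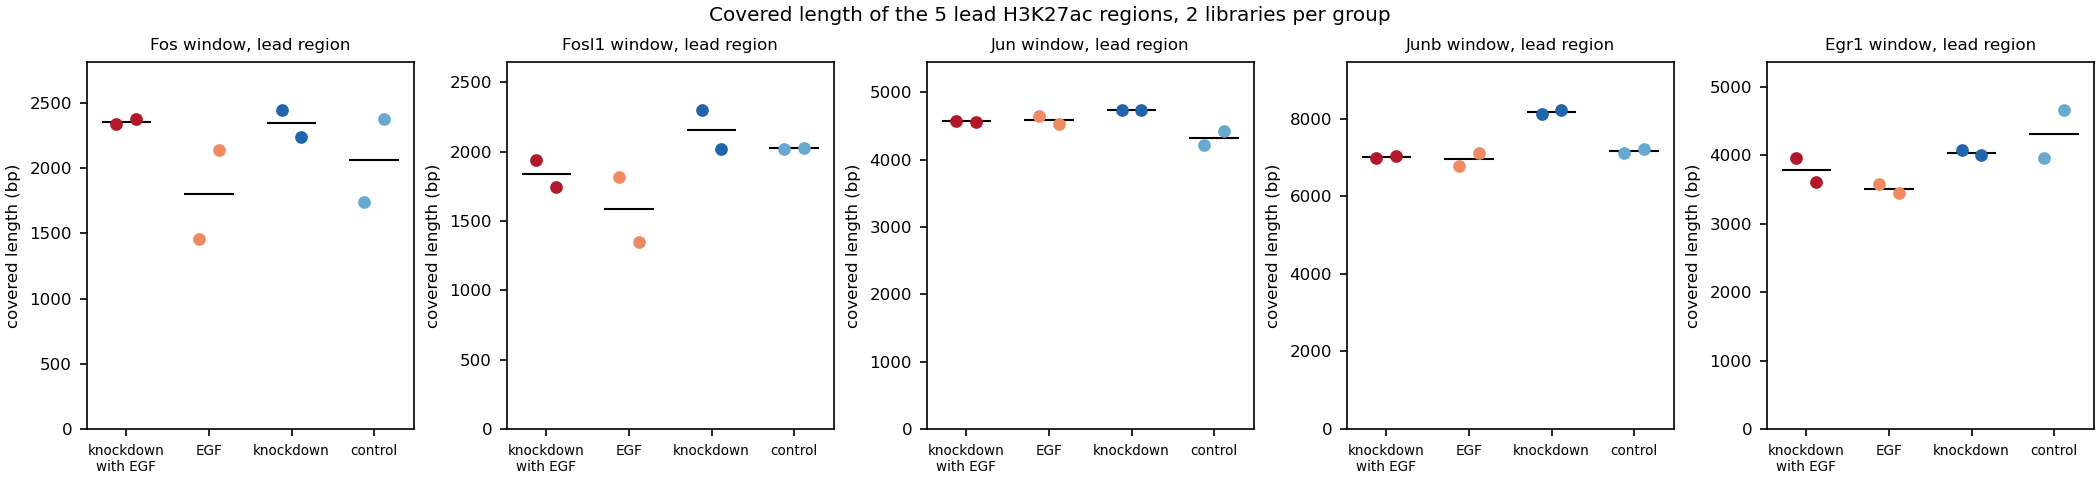
Covered length in bp of the lead region of each window, with 1 point per library, a line at the group mean and the axis starting at 0. Lead regions span from 1347 bp (Fosl1, EGF 2) to 8227 bp (Junb, knockdown 2), and no library is at 0 in any of the 5 windows.

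The flanking regions carried the calls. In the Fos window, chr12:86826475-86827337, which starts 11.1 kb after the lead ends, had no peak in either library of knockdown with EGF or in either EGF library, 392 and 666 bp with knockdown and 200 and 422 bp in controls. All 4 vehicle libraries had a peak and no EGF library did, a pattern that 1.94% of tested regions shared. With EGF it was lower by 1.58 ± 0.27 on the log2 scale averaged over states (SE, limma adjusted p = 0.0195). That size depends on the added 200 bp since covered length was 0 with EGF. The region entered the test only through vehicle libraries and could only be lower, so the p-value is a description only. No peak means that the caller's limit was not reached, not that acetylation was absent. Its peaks had a fold enrichment of 3.98 and 3.84 with knockdown and 3.56 and 3.53 in controls, under the median of every list.

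In the Fosl1 window, chr19:5474082-5475224, 47.9 kb after the lead, had no peak in the 4 EGF libraries, 851 and 1143 bp with knockdown, and 0 and 341 bp in controls. Since control 1 also lacked a peak, the groups overlapped in intact cells and were apart in knockdown cells. The averaged log2 difference was -1.64 ± 0.37 (limma adjusted p = 0.0388). This region too entered the test only through vehicle libraries and could only be lower, so its p-value is a description only. The other Fosl1 flanking regions did not pass. Among them, chr19:5432816-5434474, 6.61 kb after the lead, was longer with EGF in intact cells, at 1573 and 1581 bp against 986 and 979 bp in controls, but not so in knockdown cells, at 1288 and 1499 bp with EGF against 1205 and 1638 bp without. Its log2 difference in intact cells was 0.59 ± 0.17 (limma adjusted p = 0.125).

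The Jun window held the most regions and also the furthest ones. At chr4:94804582-94805704, 83.3 kb after the lead, knockdown with EGF had no peak, the EGF libraries covered 254 and 641 bp, the knockdown libraries 1018 and 831 bp and the control libraries 975 and 963 bp. EGF libraries were thus lower in both states without overlap, and the averaged log2 difference was -1.70 ± 0.27 (limma adjusted p = 0.0166), the smallest adjusted p of any member. The peaks of this region were weak in every library that had one. Their fold enrichment was 3.33 to 3.71, above that of only 5.78% to 19.3% of the peaks in their lists. Their −log10 q was 1.39 to 1.94, close to the lowest in the lists. No peak here too means that the caller's limit was not reached, not that acetylation was absent. A second distal region, chr4:94799697-94801175, had 0 and 935 bp in knockdown with EGF, 263 and 1024 bp with EGF, 1429 and 804 bp with knockdown and 1033 and 1226 bp in controls. Its libraries varied so much within groups that a log2 difference of -1.12 ± 0.62 did not pass (limma adjusted p = 0.265). Before the lead, at chr4:94645130-94646693, EGF libraries covered more than vehicle libraries: 1444 and 1479 bp in knockdown with EGF and 1425 and 1498 bp with EGF, against 1423 and 1249 bp with knockdown and 1242 and 1268 bp in controls. The gap between the groups was 2 bp at its narrowest, and the log2 difference of 0.15 ± 0.083 did not pass (limma adjusted p = 0.254).

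In the Egr1 window, chr18:35043642-35048967, 20.3 kb after the lead, was nearly as wide as the lead and wider than 94.6% of tested regions. It covered 3209 and 3041 bp in knockdown with EGF, 2973 and 3487 bp with EGF, 3960 and 4725 bp with knockdown and 4116 and 4781 bp in controls. No EGF library reached the covered length of a vehicle library. Covered length fell with EGF to 3177.5 ± 229 bp, against 4395.5 ± 418 bp without (SD, n = 4 each). The log2 difference was -0.44 ± 0.090 (limma adjusted p = 0.0314). The difference was alike in the 2 states, at -0.44 in intact cells and -0.45 in knockdown cells, neither of which passed alone (limma adjusted p = 0.134 and 0.0991). This is the 1 called member with peaks in all 8 libraries. Its highest peak had a fold enrichment of 6.23 and 6.67 in knockdown with EGF and 6.31 and 7.35 with EGF. The values were 5.98 and 5.45 with knockdown and 4.90 and 5.78 in controls. Fold was thus higher with EGF where covered length was lower. Knockdown 2 and control 2 had a single peak there and the other 6 libraries had 2, and the length of a single peak includes the stretch between the 2.

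**Figure D3:**
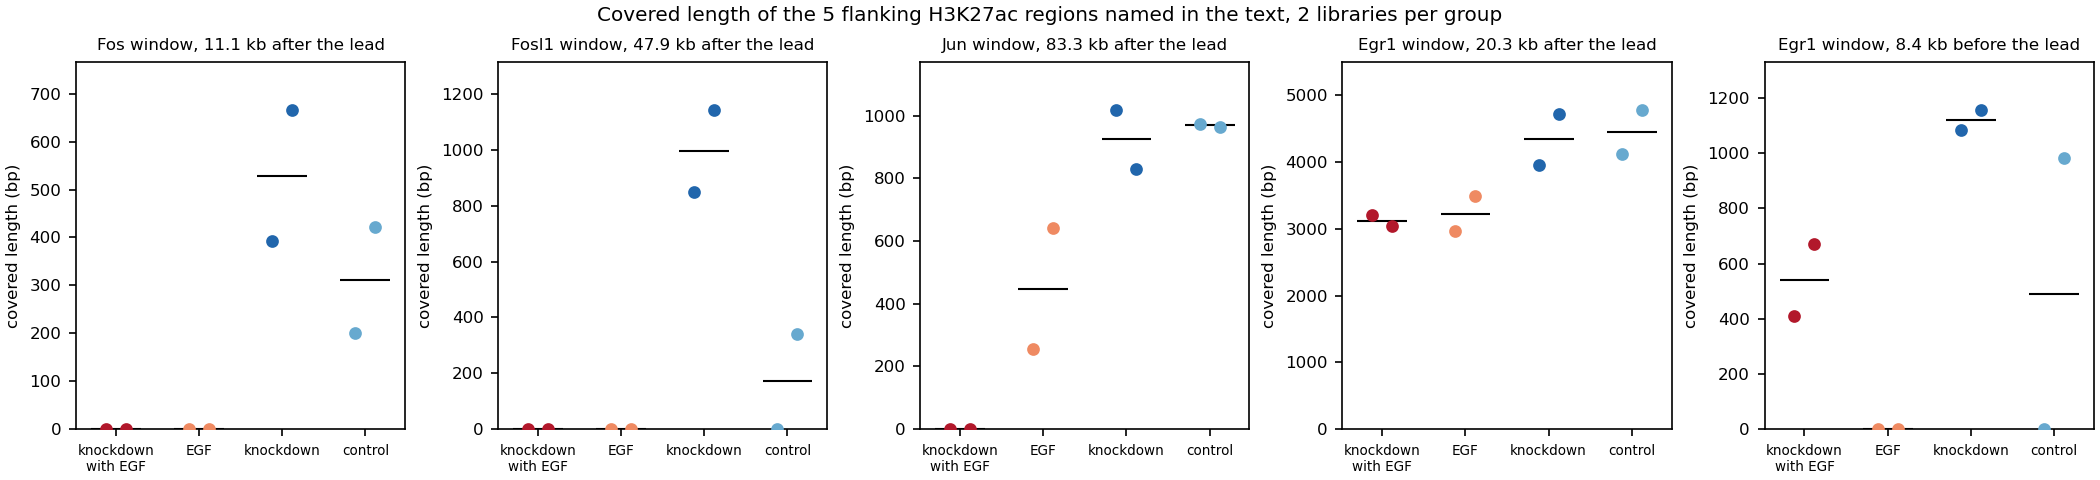
Covered length in bp of the 4 flanking regions called for EGF and of the Egr1 region 8.4 kb before the lead, with 1 point per library and a line at the group mean; a point at 0 has no peak. EGF libraries lie at 0 in the Fos and Fosl1 panels and between 2973 and 3487 bp in the wide Egr1 panel, below the vehicle libraries at 3960 to 4781 bp.

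Set by siRNA state, 3 of 22 members were called lower with EGF and 0 higher in knockdown cells, where 6% of all tested regions were lower and 0.622% higher: the Fos region (log2 -1.84 ± 0.38, limma adjusted p = 0.0461), the Fosl1 region (-2.57 ± 0.52, adjusted p = 0.0434) and the distal Jun region (-2.49 ± 0.38, adjusted p = 0.0232). The Fos and Fosl1 regions have peaks in vehicle libraries only and so had to be lower with EGF, which makes this count too a description. In intact cells 0 members were called in either direction by limma, with 4 at an unadjusted p under 0.05, where 1.05% of all regions were called higher and 2.9% lower. The same 3 regions had log2 differences of -1.32 ± 0.38 (Fos), -0.72 ± 0.52 (Fosl1) and -0.92 ± 0.38 (Jun) there. A difference between states was not shown, since the smallest interaction adjusted p among members was 0.438 (limma; Jun, log2 -1.57 ± 0.54) and 0% of all regions passed the interaction in either direction, with 3 members at an unadjusted p under 0.05. By cover without overlap, 5 members lay above and 7 below with EGF in intact cells, beside 12.4% and 29.1% of all regions, and 1 above and 14 below in knockdown cells, beside 6.4% and 51.9%. By peak presence 0 were gained and 1 lost in intact cells, beside 2.41% and 5.13%, and 0 gained and 3 lost in knockdown cells, beside 1.2% and 10.1%; over both states 0 were gained, beside 0.487%. Over both states all 4 EGF libraries lay above all 4 vehicle libraries in 1 member and below them in 6, beside 2.33% and 14% of all regions. The 6 were the Fosl1, Junb and Egr1 leads, the Fos and distal Jun flanking regions and the wide Egr1 flanking region.

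Leaving out 1 library moved the calls at these loci and those over all regions, though not always in the same direction. With all 8 libraries, 4 members were called for EGF averaged over states, beside 13.0% of all regions in either direction. Averaged over states, 0 members were called without knockdown 2 or without knockdown with EGF 1, where 4.77% and 5.71% of all regions were called in either direction. Without EGF 1, EGF 2, knockdown 1 or knockdown with EGF 2, 1 member was called, beside 5.3% to 7.55% of all regions. Without control 2 it was 3, beside 15.5%, and without control 1 it was 6, beside 21.4%, with the Egr1 lead and the region before it added. After quantile normalization the median of all regions was 0.044 and 1 member was called, the Fosl1 region, beside 10.9% of all regions. The Fos region then had -0.57 (limma adjusted p = 0.235), the distal Jun region -1.13 (limma adjusted p = 0.0637) and the wide Egr1 region -0.23 (limma adjusted p = 0.0970). The Fos and Fosl1 regions have peaks in vehicle libraries only, so their calls and p-values in any of these fits are a description. With lists of equal length, which keep the top 22030 peaks of each list by score, the wide Egr1 region was the 1 member called, beside 13.9% of all regions. The distal Jun region then had a log2 difference of -0.34 over both states (limma adjusted p = 0.730) and of 0 in knockdown cells, since its peaks in knockdown libraries lay below that rank. In knockdown cells 0 members were called when any library of the 4 compared was left out, but so were 0% to 0.223% of all regions, so nothing can be read about the members from it.

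The remaining tested members had values that were not past the threshold in any contrast. In the Egr1 window, chr18:35039432-35041260 covered 923 and 1016 bp in knockdown with EGF, 1755 and 1381 bp with EGF, 1150 and 1114 bp with knockdown and 546 and 1270 bp in controls. EGF was thus above control in intact cells and below in knockdown cells, and the interaction did not pass (log2 -0.94 ± 0.46, limma adjusted p = 0.672). At chr18:34999938-35001743 the values were 520 and 292 bp in knockdown with EGF, 949 and 969 bp with EGF, 837 and 1139 bp with knockdown and 0 and 1480 bp in controls, so that the 2 controls spanned all others. In the Fosl1 window 2 regions 30.2 and 34.0 kb after the lead ranged over the 8 libraries from 497 to 1612 bp and from 725 to 1043 bp. The Junb region 6.64 kb after its lead ranged from 773 to 1204 bp, and a Jun region 28.03 kb after its lead had a peak of 222 bp in knockdown with EGF 1, one of 376 bp in control 2 and none in the other 6 libraries.

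Summed per window, covered length was lower with EGF in each case, within what the replicates allow. The Egr1 window had 9021 and 8635 bp in knockdown with EGF, 9252 and 9292 bp with EGF, 11112 and 12135 bp with knockdown and 8621 and 13175 bp in controls. Control 1 was the lowest of all 8 and control 2 the highest, so the groups overlapped. The mean was 9050.0 ± 301 bp with EGF and 11261 ± 1951 bp without (SD over 4 libraries each, exact permutation p = 0.143, two-sided as for all windows). Of the other windows, Jun came to 6922 ± 597 bp with EGF and 8264 ± 897 bp without (exact permutation p = 0.0857), Fos to 3395 ± 565 and 4203 ± 723 bp (exact permutation p = 0.114), Junb to 13990 ± 552 and 15258 ± 1938 bp (exact permutation p = 0.229) and Fosl1 to 4955.5 ± 594 and 5696 ± 1009 bp (exact permutation p = 0.314). With 5 windows tested, 4 libraries against 4 cannot give a p below 0.0286.

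The totals of whole lists move with these sums. Expressed as a share of each library's covered length, the differences in all 5 windows turned positive with EGF, by 0.00015 percentage points for Fos, 0.00112 for Fosl1, 0.000756 for Jun, 0.00515 for Junb and 0.00033 for Egr1. For Junb the share was above all vehicle libraries in every EGF library (two-sided exact permutation p = 0.0286, the smallest possible, before any adjustment for 5 windows), and for the others the exact permutation p was 0.457 or more. In proportion, the windows thus differed no more in bp than the whole lists did. In the Fos, Junb and Egr1 windows control 1 decided much of the spread in bp. Without it, the differences were -1167 bp for Fos, -2183 bp for Junb and -3091 bp for Egr1. The exact permutation p was then 0.0571 in each of them, the smallest that 3 against 4 allows. For Fosl1 the difference was -1029 bp without control 1 and -1034 bp without control 2. For Jun it was -1610 bp without control 1 and -1596 bp without EGF 2 (exact permutation p = 0.114 and 0.0571).

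**Figure D4:**
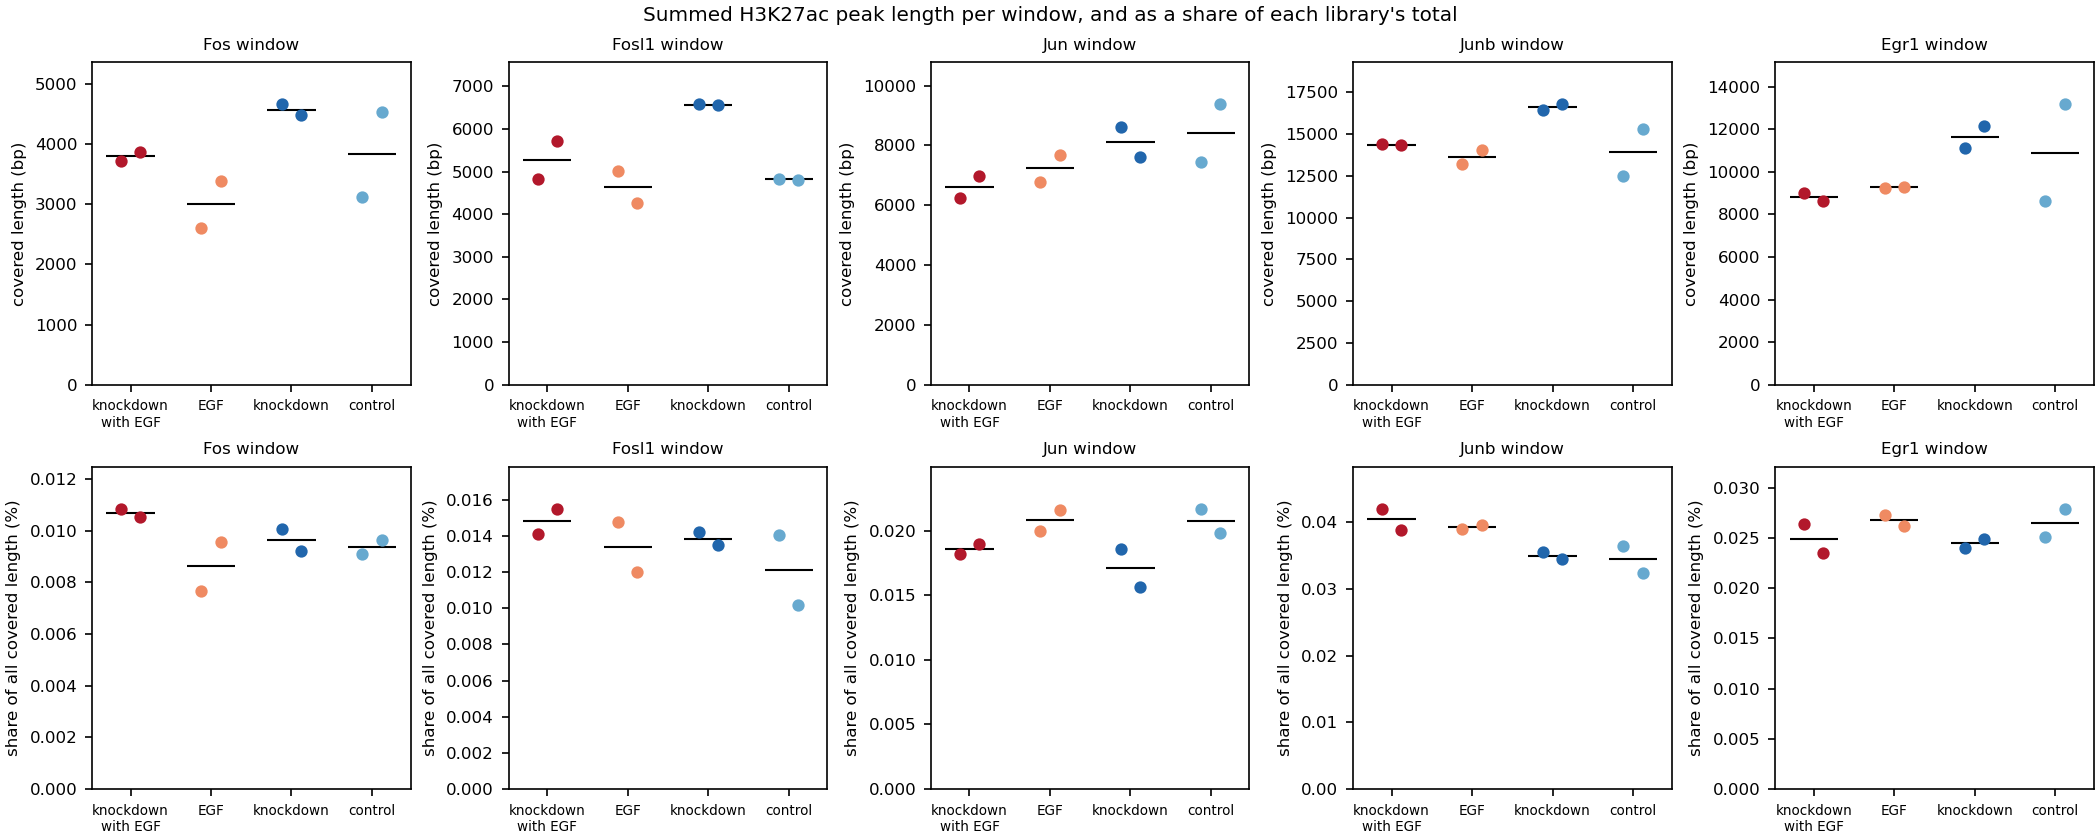
Summed peak length per window in bp (upper row) and as a percentage of all covered length of the library (lower row), with 1 point per library and a line at the group mean. Knockdown libraries lie high in bp, for instance 16442 and 16782 bp in the Junb window, while as a share the EGF libraries lie above the vehicle libraries in the Junb window and overlap them in the other 4.

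The second question is what siRNA against Arid1a did, with and without EGF. Without EGF no member passed the test, and the lists of knockdown cells covered 46.3 and 48.7 Mb against 34.3 and 47.2 Mb in controls. The limma fit called 0 members higher and 0 lower, with 3 at an unadjusted p under 0.05, beside 1.09% and 0.274% of all regions. The median log2 difference was 0.20 over members and 0.18 over all regions. In 8 members both knockdown libraries lay above both controls and in 0 below, beside 33.5% and 6.58% of all regions. By peak presence 0 members were gained and 0 lost, beside 3.67% and 0.938% of all regions. The Junb lead was one of the 8 members with cover above, at 8136 and 8227 bp with knockdown against 7131 and 7225 bp in controls. Its log2 difference was 0.18 ± 0.065 (limma adjusted p = 0.311). The smallest adjusted p was that of the distal Fosl1 region, at 851 and 1143 bp with knockdown against 0 and 341 bp in controls (log2 1.85 ± 0.52, limma adjusted p = 0.193). It met the filter of 2 libraries only with the peaks of the knockdown libraries, so this p-value is a description only.

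Under EGF, the knockdown differences were centred on 0, with a median of 0.00013 over members and 0 over all regions on the log2 scale. By limma 0 members were called higher and 0 lower, with 1 at an unadjusted p under 0.05, beside 0.234% and 0.426% of all regions. Cover lay above that of the EGF libraries without overlap in 6 members and below in 4, beside 20.8% and 17.1% of all regions. Peaks were present in both libraries of 1 group and in neither of the other in 2 members, 1 in each direction. The Egr1 region chr18:35009136-35010292, 8.38 kb before the lead, had 411 and 672 bp in knockdown with EGF and no peak in either EGF library, a gain shared with 2.43% of all regions. Without EGF it covered 1086 and 1157 bp with knockdown, against 0 and 982 bp in controls, so the knockdown libraries were the higher ones there too. Its log2 difference under EGF was 1.87 ± 0.81 (limma adjusted p = 0.505). The distal Jun region showed the opposite pattern, with no peak in knockdown with EGF against 254 and 641 bp with EGF, a loss shared with 2.82% of all regions (log2 -1.63 ± 0.38, limma adjusted p = 0.162).

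In the Junb window, chr8:87507821-87510822, 0.85 kb after the lead, was the only member in which all 4 knockdown libraries, with and without EGF, lay above all 4 libraries with the non-targeting siRNA, and in 0 they lay below, beside 3.98% and 0.995% of all regions. By peak presence over both states 0 members were gained and 0 lost, beside 0.313% and 0.156%. The region 0.85 kb after the lead covered 2278 and 2772 bp in knockdown with EGF against 2087 and 2054 bp with EGF. Without EGF it covered 2783 and 2179 bp with knockdown against 1605 and 2047 bp in controls. The limma log2 differences were 0.26 ± 0.17 with EGF and 0.40 ± 0.17 without, and neither passed (adjusted p = 0.753 and 0.402). On the other side of the lead, chr8:87489086-87494659 was a single peak of 5345 bp in knockdown 2 and 5152 bp in control 2 and a pair of peaks in the other 6 libraries, which covered 2954 to 4356 bp in all.

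The authors' fold enrichment, a ratio of each peak over the caller's background, describes height rather than width. It is given side by side without a test, since it depends on each list: its 90th percentile over all peaks was 8.30 and 7.96 in knockdown with EGF, 7.02 and 7.63 with EGF, 9.05 and 9.10 with knockdown and 7.10 and 8.31 in controls. The highest peak of the Fosl1 lead had a fold of 7.25 and 7.80 in knockdown with EGF, 6.38 and 7.13 with EGF, 9.34 and 10.2 with knockdown and 7.52 and 8.97 in controls. For Jun the values were 8.08 and 8.25 in knockdown with EGF, 6.23 and 6.65 with EGF, 8.40 and 9.47 with knockdown and 7.01 and 7.86 in controls. In both leads the EGF libraries had the lower fold within each siRNA state, and in knockdown cells so did the 90th percentile of the whole lists.

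The Junb lead had a fold of 7.05 and 7.37 in knockdown with EGF, 6.38 and 6.99 with EGF, 9.03 and 8.69 with knockdown and 5.94 and 8.16 in controls, with overlap in intact cells. The Fos and Egr1 leads were lower and flatter, with Fos at 4.74 and 5.22 in knockdown with EGF, 5.49 and 5.41 with EGF, 5.85 and 5.11 with knockdown and 5.69 and 5.21 in controls. In the Egr1 lead the fold was 5.66 and 5.37 in knockdown with EGF, 5.38 and 5.83 with EGF, 5.98 and 6.19 with knockdown and 5.21 and 5.76 in controls. A narrower region of the Fos window had higher peaks than its lead: the one 15.4 kb before it, chr12:86795388-86797240, covered 1146 to 1824 bp, less than the lead in every library, yet had a fold of 8.88 and 7.68 in knockdown with EGF, 5.92 and 6.79 with EGF, 8.14 and 9.36 with knockdown and 7.09 and 7.78 in controls, above that of the lead in all 8.

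**Figure D5:**
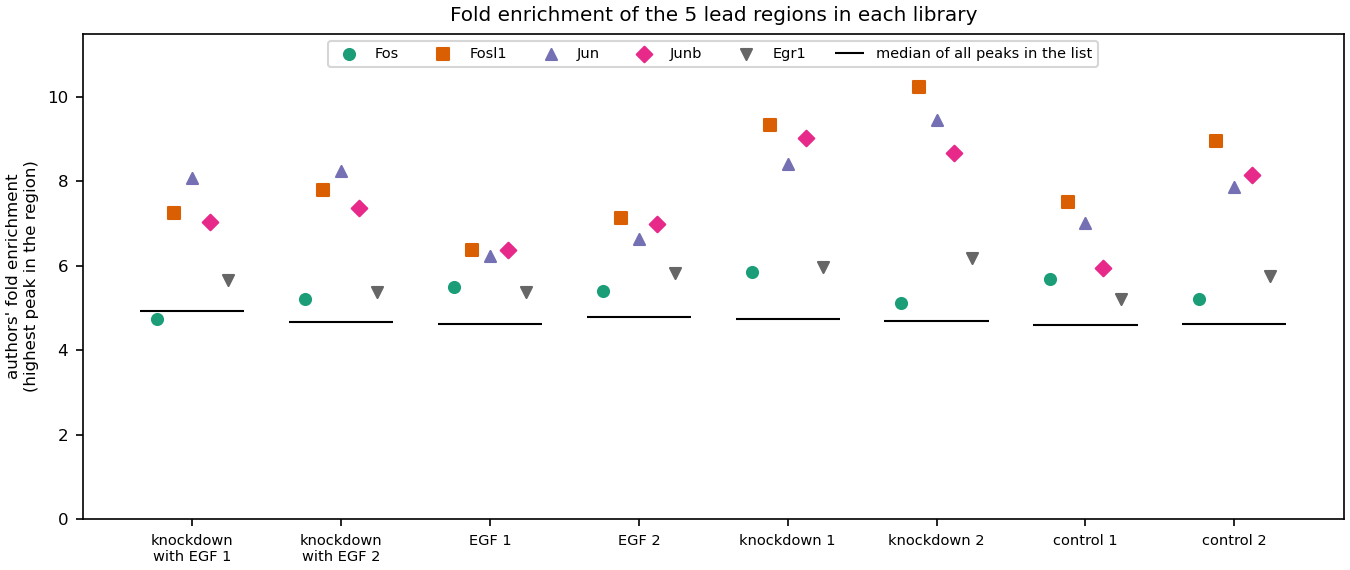
Authors' fold enrichment of the highest peak in each of the 5 lead regions, by library, with a line at the median fold of all peaks in that list. The Fosl1, Jun and Junb leads lie between 5.94 and 10.2, and the Fos and Egr1 leads between 4.74 and 6.19, close to the list medians of 4.59 to 4.92.

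For each lead, the most alike region was picked from all tested regions outside the windows by its pattern over the 8 libraries. A high r is therefore built into the choice. All regions of a library also share its list length, which differed between libraries. By Pearson correlation of log2(covered bp + 200) over the 8 libraries, as a description, the region most like the Fos lead was chr1:135359504-135360699 (r = 0.988), and that most like the Fosl1 lead was chr10:92676504-92678930 (r = 0.989). For the Jun lead it was chr16:32430035-32431591 (r = 0.976), for the Junb lead chr6:118368848-118370324 (r = 0.990) and for the Egr1 lead chr6:85400393-85404154 (r = 0.983). The Junb pattern was common, with 994 regions at an r over 0.9, against 232 for Fos, 144 for Fosl1, 128 for Jun and 82 for Egr1.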

How the data were processed

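The authors deposited 1 H3K27ac peak list per library in build mm9, with 9 columns and no header, so peaks were called per sample. The submitters' processing notes name MACS2 2.1.1.20160309.0, Bowtie2 2.3.4.2, deepTools 3.0.2 and SAMtools without a role or order. Use of an input library is not given in the sources used here. Scores as deposited are the whole part of 10 times the −log10 q-value, except in 11 of 195577 peaks. Fold enrichment, as deposited, is a ratio of a peak to the background of the caller, and each peak's −log10 q and −log10 p are also the authors'. The lowest −log10 q was 1.00. Peaks of 1 list lay at least 801 bp apart.

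Covered bp was summed per merged region and library. Limma 3.58.1 (R 4.3.3; empirical Bayes with a trend) fitted 4 group means to log2(covered bp + 200) over 28146 regions, those that 2 or more libraries had a peak in, and p-values were adjusted over these by Benjamini-Hochberg with a threshold of 0.05. A fold difference on this scale is understated for short peaks. Window totals were compared by exact permutation of all 70 assignments. The steps were tested on simulated data. Other steps ran in Python 3.11.15 with NumPy 2.4.6, SciPy 1.17.1, matplotlib 3.10.9 and pandas 2.3.3.

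Members, windows and lists were chosen with earlier results of these data known. Named regions are the lead of each window, those called in any contrast and those with a peak in both libraries of 1 group and neither of the other; other members named were chosen after their values were seen. Alternatives were lists of equal length, only peaks above the median score, merging across 500 bp, pseudocounts of 50 and 1000 bp, other filters, quantile normalization, a replicate block, shares of total cover and leaving out each library. A planned list of further immediate early genes and acinar markers was not analysed here, since no mm9 annotation was used.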

Additional observations from a re-analysis of the deposited data

Results flagged for a closer look

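In the Fos window, control 1 covered 3125 bp, far below the other 3 vehicle libraries, which covered 4661 and 4487 bp with knockdown and 4540 bp in control 2. Its whole list was also the shortest of the vehicle lists, with 22167 peaks, and the part of that in the Fos value was not tested.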

How the results depend on the processing

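The replicate numbers are shared by the groups but did not pair the libraries: deviations of libraries with the same number correlated at -0.0093 to 0.0317 over 28146 regions. With the replicate block, 1 member was called for EGF in knockdown cells in place of 3, beside 4.18% of all regions in place of 6.62%. It was the distal Jun region (limma adjusted p = 0.0463). The Fos and Fosl1 regions had limma adjusted p = 0.0666 and 0.0591, and the 4 calls of the averaged EGF effect remained. The Fos and Fosl1 regions entered the test only through vehicle libraries, so their p-values and calls here are a description. As a share of total cover, the EGF differences reversed to 0.00015 (Fos), 0.00112 (Fosl1), 0.000756 (Jun), 0.00515 (Junb) and 0.00033 (Egr1) percentage points, as set out with the window totals. With peaks above the pooled median score of 40, the Jun window difference reversed to 282.25 bp and that of Egr1 was -2459.25 bp (two-sided exact permutation p = 0.0286). Leaving out 1 library, window differences ranged from -1167 to -544 bp (Fos), -1034 to -445.5 bp (Fosl1), -1610 to -972 bp (Jun), -2183 to -759.75 bp (Junb) and -3091 to -1573 bp (Egr1). The Fos lead ranged from -0.21 to 0.037 on the log2 scale, and quantile normalization gave 0.11 for it, 0.024 for Egr1 and 0.070 for Junb.

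Counts of called members also moved, and the share of all regions called, in either direction, stands in brackets beside each. With lists of equal length there was 1 for EGF in intact cells, the Egr1 region chr18:34999938-35001743, higher (6.2%), 0 in knockdown cells (6.65%), 1 averaged (13.9%), 2 for knockdown without EGF (2.57%) and 1 with EGF (2.08%). Among peaks above the median score there was 1 for EGF in knockdown cells (7.64%), 1 averaged (12.3%), 1 for knockdown without EGF (4.65%) and 1 for the interaction (5.57%). For EGF in knockdown cells, 1 was called with no filter (4.03%), 1 with a peak in at least 4 libraries (5.72%) and 1 after quantile normalization (3.2%), which also gave 1 averaged (10.9%). Both calls after quantile normalization were the distal Fosl1 region, which entered the test only through vehicle libraries. Leaving out 1 library gave 0 to 2 for EGF in intact cells (0% to 7.57%), 0 to 3 in knockdown cells (0% to 15.1%), 0 to 6 averaged (4.77% to 21.4%), 0 to 3 for knockdown without EGF (0% to 11.1%), 0 with EGF (0% to 2.36%) and 0 to 2 for the interaction (0% to 4.24%). Without control 1 the intact count was 1, a lower region (7.57%). Without control 2 it was 2, both higher (5.29%), and the 3 for knockdown without EGF and the 2 for the interaction came from this setting alone. The cause was not tested. A lone library left in a group is assumed to vary like the others. Read depth is unknown, and groups of 2 limit what can be called.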
